A study of Mus musculus with 8 samples.

Results

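Genes of dopamine and noradrenaline synthesis, uptake and neuronal identity were examined in brain lysates of mice labelled as lacking the cytokine TNF and of mice labelled TNF+/+. The 8 genes were chosen by name for their roles, with earlier results of these data known: Th, Dbh, Slc6a3, Slc6a2, Maoa, Nr4a2, Pitx3 and Aldh1a1. All 8 were matched, each to the 1 probe set that carried its symbol alone, out of 19938 genes with a symbol on the array. The arrays measured brain lysates of adult male mice 2 to 4 months old, 4 labelled TNF-/- and 4 labelled TNF+/+ with the genotype given as C57BL/6. The labels give neither the Tnf allele nor the strain of the TNF-/- mice, and no treatment is listed. Each array was 1 biological replicate of bulk tissue, so fewer cells of a type and less RNA per cell cannot be told apart.

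Dopamine and noradrenaline are made from tyrosine. Tyrosine hydroxylase, encoded by Th, makes L-DOPA in the rate-limiting step, aromatic L-amino acid decarboxylase (Ddc) turns it into dopamine, and dopamine beta-hydroxylase (Dbh) makes noradrenaline from dopamine in noradrenaline neurons. The cell bodies lie in small nuclei, those of dopamine neurons mainly in the midbrain and those of noradrenaline neurons in the hindbrain, above all the locus coeruleus. Th is also made by neurons of the olfactory bulb and hypothalamus. After release, dopamine is taken up through the transporter of Slc6a3 and noradrenaline through that of Slc6a2, the vesicular transporter of Slc18a2 refills the vesicles, and monoamine oxidase A (Maoa) breaks both down. Slc18a2, Ddc and Maoa also serve serotonin neurons.

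The stretches upstream of Th, Slc6a3 and Slc18a2 are shown because these genes carry the comparisons below: the first enzyme of the pathway and the 2 transporters whose signals followed each other most closely. Each is the 250 bases before the annotated start, from RefSeq in GRCm38.p6, read 5′ to 3′ on the strand of the gene. Capitals mark a match to the cAMP response element TGACGTCA, the NR4A monomer site AAAGGTCA or the PITX site TAATCC, searched on both strands; these motifs do not overlap in the stretches shown.
Th (chr7:142899996-142900245, minus strand): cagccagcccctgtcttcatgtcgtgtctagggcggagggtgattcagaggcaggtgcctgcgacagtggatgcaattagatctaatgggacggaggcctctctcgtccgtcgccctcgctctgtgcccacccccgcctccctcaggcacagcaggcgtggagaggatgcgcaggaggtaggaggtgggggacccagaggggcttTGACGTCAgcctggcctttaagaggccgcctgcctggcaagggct
Slc6a3 (chr13:73536497-73536746, plus strand): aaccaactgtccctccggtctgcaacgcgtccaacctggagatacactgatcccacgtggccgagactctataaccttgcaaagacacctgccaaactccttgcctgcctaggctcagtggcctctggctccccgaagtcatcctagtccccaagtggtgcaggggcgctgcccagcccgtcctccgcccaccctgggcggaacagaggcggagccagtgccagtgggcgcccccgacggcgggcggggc
Slc18a2 (chr19:59260628-59260877, plus strand): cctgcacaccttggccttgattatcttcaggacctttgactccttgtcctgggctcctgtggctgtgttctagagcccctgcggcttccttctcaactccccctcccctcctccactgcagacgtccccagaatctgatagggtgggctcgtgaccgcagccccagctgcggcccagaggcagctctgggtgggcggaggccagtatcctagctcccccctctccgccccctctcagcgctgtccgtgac

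The only match was the cAMP response element of Th, whose first base lies 45 bases before the start. That motif was present in 1.56% of the 32536 distinct stretches of the same length in the table, the NR4A motif in 1.35% and the PITX motif in 6.25%. The stretches of Dbh, Maoa, Nr4a2 and Pitx3, and both of Aldh1a1, held none of the 3 motifs, and Slc6a2 is named only. A missing match says only that these letters are not in the window.

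Values below are the authors' log2 signals, on which a difference of 1 is a doubling, and differences are TNF-/- minus TNF+/+. Array medians lay between 5.03 and 5.11. The defining markers of brain were present, with 10 of 10 measured genes of neurons, glia and endothelium brighter than the median gene. Tnf itself went against the labels: its signal was 5.92 ± 0.22 in arrays labelled TNF-/- and 4.53 ± 0.29 in arrays labelled TNF+/+ (SD, n = 4 each; limma, adjusted p = 0.0278). Its signals did not overlap between the groups (exact permutation p = 0.0286, two-sided). The labels do not say which part of Tnf was deleted or whether its probes lie there, so directions are those of arrays as labelled. TNF+/+ array 1 stood apart in the cerebellar granule cell gene Gabra6 (8.21, against 4.01 to 4.42 in the other 7 arrays, so cerebellar signal was low in all but that array), and TNF+/+ arrays 3 and 4 on the first principal component (scores of 22.1 and 37.2, against -4.29 or lower).

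Between genotypes, none of the 8 genes passed the test. Limma called 0 of 8 at an adjusted p under 0.05, against 0.0502% of all genes and 0.0816% of all probe sets. SAM, a permutation method named in the study's design, called 0 of 8, against 0.11% of all genes and 0.149% of all probe sets. At an unadjusted p under 0.05 there was 1 of 8 (Slc6a3), against 11.7% of all genes. The groups did not separate fully for any of the 8, against 7.66% of all genes with no overlap between groups (4.16% higher and 3.5% lower in TNF-/- arrays). The median difference was 0.04 over the 8 genes and -0.01 over all genes. These shares lie near or below the background, and no change of these genes was detected with 4 arrays a group.

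**Figure D1:**
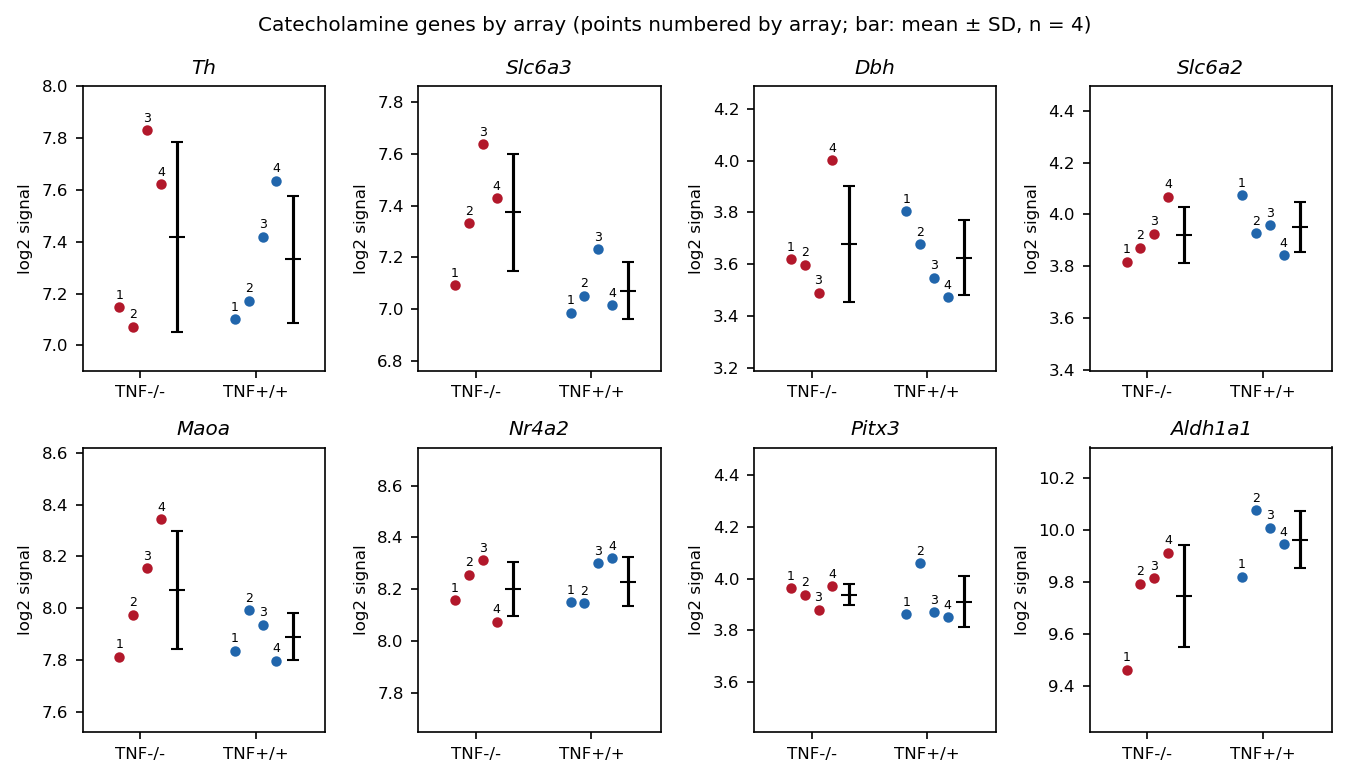
Log2 signal of the 8 genes in each array, with arrays labelled TNF-/- left of those labelled TNF+/+, points numbered by array, and bars for mean ± SD (n = 4). All panels span the same log2 range, and the points of the groups overlap in every panel.

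For the synthesis enzyme genes Th and Dbh no difference was detected. Th, the rate-limiting enzyme gene, had signals of 7.15, 7.07, 7.83 and 7.62 in TNF-/- arrays 1 to 4, against 7.10, 7.17, 7.42 and 7.64 in TNF+/+ arrays 1 to 4. Arrays 3 and 4 were high and arrays 1 and 2 low under either label, and the groups overlapped over most of their range. The difference was 0.09 ± 0.19 (SE), or 1.06-fold with a 95% interval of 0.786-fold to 1.43-fold (limma, adjusted p = 0.888; exact permutation p = 0.771, two-sided). It was -0.05 without TNF-/- array 3 and 0.28 without TNF+/+ arrays 3 and 4. Th varied more than most genes within groups: its pooled SD of 0.31 exceeded that of 99.2% of genes.

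Dbh, which makes noradrenaline, had signals of 3.62, 3.60, 3.49 and 4.00 in TNF-/- arrays, against 3.80, 3.68, 3.55 and 3.47 in TNF+/+ arrays. They lay below the array's 25th percentile in 7 of 8 arrays, the exception being TNF-/- array 4, at a signal where few differences could be seen. The difference was 0.05 ± 0.12 (SE; limma, adjusted p = 0.894), and -0.06 without TNF-/- array 4. The 2 groups overlapped.

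Of the uptake transporters, the dopamine transporter gene Slc6a3 came nearest to a difference. Its signals were 7.09, 7.33, 7.64 and 7.43 in TNF-/- arrays, against 6.99, 7.05, 7.23 and 7.01 in TNF+/+ arrays. TNF-/- arrays 2, 3 and 4 lay above every TNF+/+ array, while TNF-/- array 1 lay below TNF+/+ array 3. The means were 7.37 ± 0.23 in TNF-/- arrays and 7.07 ± 0.11 in TNF+/+ arrays (SD, n = 4 each), a difference of 0.30 ± 0.11 (SE) or 1.23-fold, with an unadjusted 95% interval of 1.03-fold to 1.48-fold. It did not pass over all probe sets (limma, adjusted p = 0.407; exact permutation p = 0.0571, two-sided, where 4 against 4 can reach 0.0286). Leaving out single arrays moved the difference between 0.21 and 0.40 and never made it pass.

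The noradrenaline transporter gene Slc6a2 had signals of 3.82, 3.87, 3.93 and 4.07 in TNF-/- arrays, against 4.07, 3.93, 3.96 and 3.84 in TNF+/+ arrays. In 6 of 8 arrays it lay below the 25th percentile, and the groups covered the same range. The difference was -0.03 ± 0.07 (SE; limma, adjusted p = 0.9). Its sign turned without TNF-/- array 1 (0.0045) and without TNF+/+ array 1 (0.011).

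Maoa, the breakdown enzyme gene on the X chromosome, had signals of 7.81, 7.98, 8.15 and 8.34 in TNF-/- arrays, against 7.84, 7.99, 7.94 and 7.80 in TNF+/+ arrays. TNF-/- arrays 3 and 4 lay above all TNF+/+ arrays and the others lay among them. The difference was 0.18 ± 0.11 (SE), or 1.13-fold with an interval of 0.949-fold to 1.35-fold (limma, adjusted p = 0.584). Without TNF-/- array 4 it was 0.09.

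Regulators of dopamine neuron identity did not separate the genotypes. Nr4a2 encodes the nuclear receptor NURR1, needed for midbrain dopamine neurons but also made in cortex and claustrum, and had signals of 8.16, 8.26, 8.31 and 8.08 in TNF-/- arrays, against 8.15, 8.15, 8.30 and 8.32 in TNF+/+ arrays. The groups overlapped throughout, with a difference of -0.03 ± 0.07 (SE; limma, adjusted p = 0.903). Without TNF-/- array 4 that difference was 0.01, and without TNF+/+ array 4 it was 0.0012. Pitx3, a homeobox gene of midbrain dopamine neurons and the lens, had signals of 3.96, 3.94, 3.88 and 3.97 in TNF-/- arrays, against 3.86, 4.06, 3.87 and 3.85 in TNF+/+ arrays, below the 25th percentile in 6 of 8 arrays. The difference was 0.03 ± 0.06 (SE; limma, adjusted p = 0.897).

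Aldh1a1, which encodes a retinaldehyde dehydrogenase of ventral midbrain dopamine neurons that is also made elsewhere in brain, was the only bright member to lie lower in TNF-/- arrays by more than its SE. Its signals were 9.46, 9.79, 9.81 and 9.91 in TNF-/- arrays, against 9.82, 10.08, 10.01 and 9.95 in TNF+/+ arrays. Only TNF-/- array 4 lay above the lowest TNF+/+ array, which was array 1. The means were 9.75 ± 0.20 in TNF-/- arrays and 9.96 ± 0.11 in TNF+/+ arrays (SD, n = 4 each). The difference was -0.22 ± 0.10 (SE), or 0.86-fold with an interval of 0.73-fold to 1.01-fold (limma, adjusted p = 0.492; exact permutation p = 0.0571, two-sided). Without TNF-/- array 1, the lowest, it was -0.12. The related gene Aldh1a7, looked up after the values were seen because close copies can share probes, differed by -0.05 ± 0.09 (SE), with signals between 4.13 and 4.47.

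**Figure D2:**
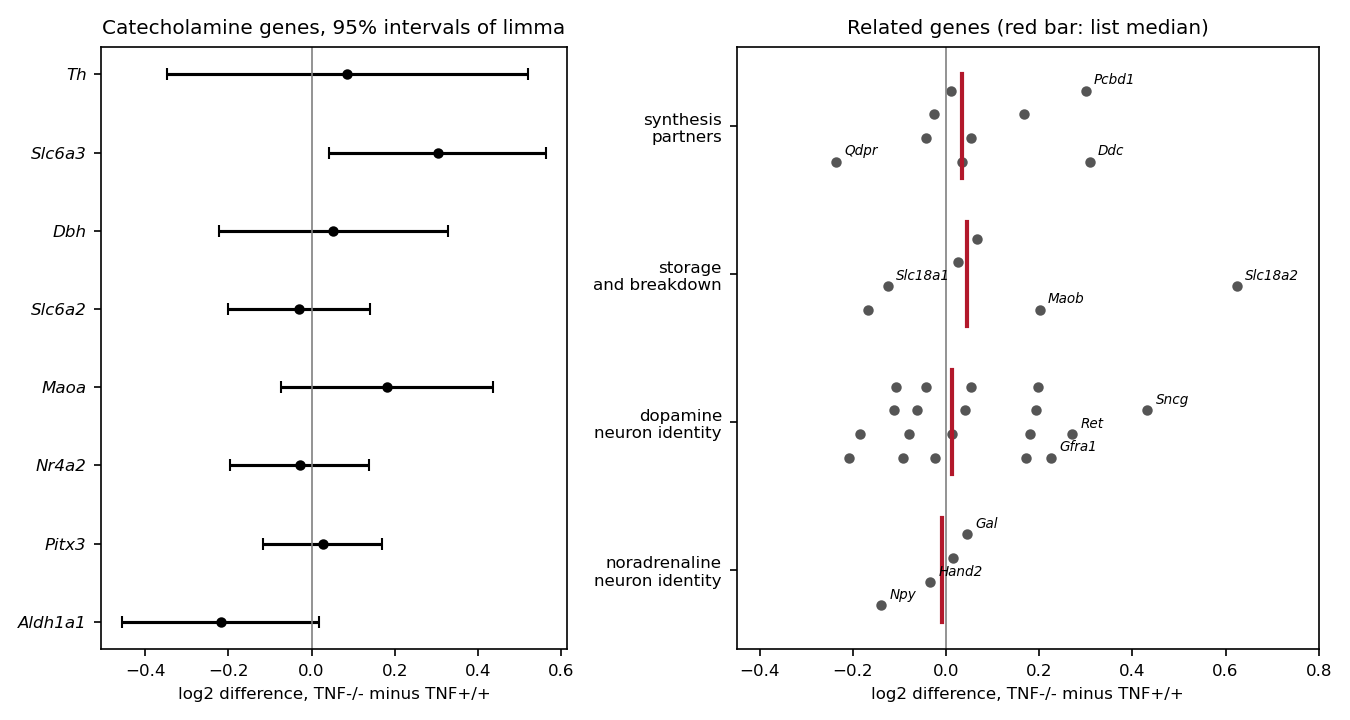
Log2 differences, TNF-/- minus TNF+/+, of the 8 genes with limma's unadjusted 95% intervals (left) and of related genes by list (right), where a red bar marks each list's median and the 3 genes of smallest p are named. The interval of Slc6a3 lies above 0 before adjustment, and Slc18a2 has the highest difference of the related genes.

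Related genes of the pathway followed in 4 lists, and none of their 38 measured members passed over all probe sets by limma or SAM. Of 9 partners of synthesis, 6 were higher and 3 lower in TNF-/- arrays, with a median of 0.03, and 1 was higher and 1 lower at an unadjusted p under 0.05 (7.37% and 4.28% of all genes). Ddc, the decarboxylase gene, had signals of 6.42, 6.53, 6.72 and 6.79 in TNF-/- arrays, against 5.99, 6.41, 6.52 and 6.31 in TNF+/+ arrays, a difference of 0.31 ± 0.13 (SE; limma, adjusted p = 0.444). The lowest was TNF+/+ array 1, the array with high Gabra6, and without it the difference was 0.20. Qdpr and Pcbd1, which regenerate the cofactor tetrahydrobiopterin, differed by -0.24 ± 0.10 and 0.30 ± 0.14 (limma, adjusted p = 0.44 and 0.498).

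Of 6 measured genes of storage and breakdown, 4 were higher and 2 lower, with a median of 0.05, and 1 was higher at an unadjusted p under 0.05. That was Slc18a2, the vesicular monoamine transporter gene. Its signals were 6.22, 6.60, 6.95 and 6.99 in TNF-/- arrays, against 5.91, 5.96, 6.46 and 5.95 in TNF+/+ arrays. As for Slc6a3, TNF-/- arrays 2, 3 and 4 lay above all TNF+/+ arrays and TNF-/- array 1 lay below TNF+/+ array 3. The difference was 0.62 ± 0.19 (SE), or 1.54-fold with an unadjusted interval of 1.14-fold to 2.08-fold (limma, adjusted p = 0.336), and 0.52 to 0.78 without single arrays. Maob, the oxidase gene found mainly in astrocytes and serotonin neurons, differed by 0.20 ± 0.10, and Slc18a1, the vesicular transporter gene of adrenal chromaffin cells, by -0.13 ± 0.07 (limma, adjusted p = 0.497 and 0.552). Slc18a1 lay below the 25th percentile in 8 of 8 arrays.

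Of 19 measured genes of dopamine neuron identity, 10 were higher and 9 lower in TNF-/- arrays, with a median of 0.01. At an unadjusted p under 0.05, 5 were higher and 0 lower, against 7.37% and 4.28% of all genes, and 3 were higher with no overlap between groups, against 4.16% of all genes. Ret, the receptor tyrosine kinase gene of the GDNF family, had signals of 6.30, 6.26, 6.21 and 6.19 in TNF-/- arrays, against 5.82, 6.08, 5.98 and 6.00 in TNF+/+ arrays, a difference of 0.27 ± 0.07 (SE). Gfra1, which encodes its co-receptor, differed by 0.23 ± 0.07 and Sncg, the gamma-synuclein gene, by 0.43 ± 0.15 (limma, adjusted p = 0.247, 0.351 and 0.381 for Ret, Gfra1 and Sncg). The other 2 of the 5, named after their values were seen, were Ntsr1 (0.20 ± 0.07) and Chrna6 (0.17 ± 0.07). Chrna6 lay below the 25th percentile in 5 of 8 arrays. The count of 5 was 2 without TNF+/+ array 1 and 3 without TNF-/- array 2, 3 or 4 or without TNF+/+ arrays 3 and 4.

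Of 4 measured genes of noradrenaline neuron identity 2 were higher and 2 lower, and 0 had an unadjusted p under 0.05. Npy, a neuropeptide gene also made by cortical interneurons, differed by -0.14 ± 0.14, Gal, the galanin gene, by 0.04 ± 0.06 and Hand2 by -0.03 ± 0.06 (SE; limma, adjusted p = 0.738, 0.793 and 0.862). Only Npy was brighter than the median gene. Gal and Hand2 lay below the 25th percentile in 6 and 8 of 8 arrays, and Phox2a, named after its values were seen, in 7. This list can therefore show little about noradrenaline neurons. Of 6 markers of adrenal medulla and sympathetic cells, 4 were brighter than the median gene, all of which brain neurons also make, and the mean over the 6 was 7.44 to 7.59 in TNF-/- arrays and 7.43 to 7.73 in TNF+/+ arrays. The dim 2, named after their values were seen, were Pnmt, the adrenaline enzyme gene, below the 25th percentile in 8 of 8 arrays, and Hand1, below it in 7.

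The next question was which of the 8 genes varied together between brains. Over the 8 arrays the 28 pairs had Pearson's r between -0.90 and 0.79 with a median of 0.13, and 18 were above 0. Of the 28, 3 had an exact permutation p under 0.05 and 1 an adjusted p under 0.05 over the 28 pairs. Th and Slc6a3, both made by midbrain dopamine neurons, gave r = 0.60 and Spearman's rho = 0.36 (exact permutation p = 0.117 and 0.389; adjusted p = 0.639 and 0.727). It was 0.65 without the arrays farthest from the median of Th (TNF-/- array 3 and TNF+/+ array 4), 0.69 with the genotype means taken off, and 0.26 (without TNF-/- array 3) to 0.84 (without TNF+/+ array 4) with single arrays left out. Each genotype has 4 arrays, too few for a correlation of its own.

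Slc6a3 and Maoa gave r = 0.79 and rho = 0.74 (exact permutation p = 0.0209 and 0.0458; adjusted p = 0.234 and 0.537), and 0.60 without the arrays farthest from the median. Dbh and Slc6a2, the noradrenaline pair, gave r = 0.76 and rho = 0.60 (exact permutation p = 0.025 and 0.132; adjusted p = 0.234 and 0.705). That relation rested on TNF-/- array 4 and TNF+/+ array 1, since r was 0.01 without them. Both genes are dim.

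The pair past the threshold was Dbh with Nr4a2, in opposite directions: r = -0.90 and rho = -0.98 (exact permutation p = 0.000149 and 0.000397; adjusted p = 0.00417 and 0.0111), -0.92 without the arrays farthest from the median of Dbh and -0.90 with genotype means taken off. TNF-/- array 4 had the highest Dbh and the lowest Nr4a2 signal. Leaving out 1 array at a time gave r of -0.95 to -0.87, past the threshold in 4 of 8 cases and not without TNF-/- array 3, TNF-/- array 4, TNF+/+ array 3 or TNF+/+ array 4 (adjusted p = 0.05 to 0.0889). It did not pass after quantile normalization (r = -0.89, adjusted p = 0.084) or without TNF+/+ arrays 3 and 4 (r = -0.87, adjusted p = 0.369). Dbh signal was below the 25th percentile in 7 of 8 arrays and spanned 0.53 on the log2 scale. Nr4a2 signal spanned only 0.24, or 1.18-fold. The part of low signal and narrow range in this relation was not tested.

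**Figure D3:**
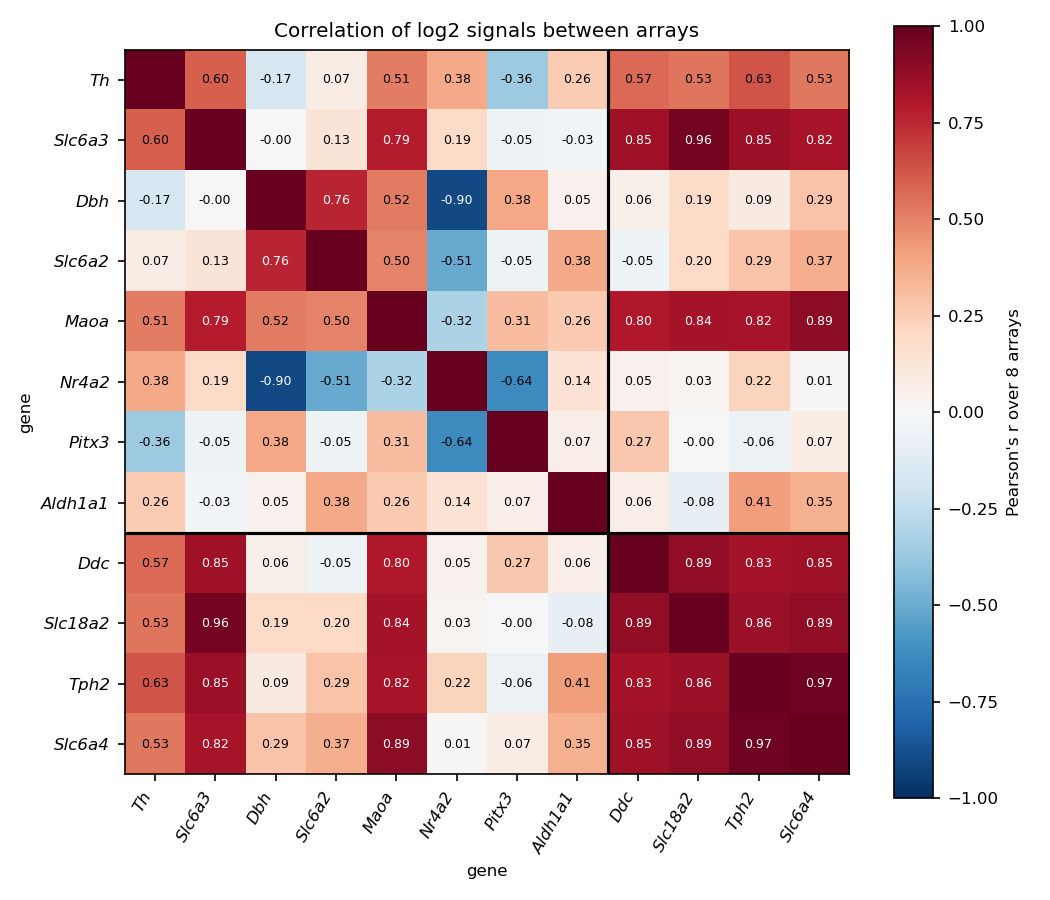
Pearson's r over the 8 arrays between log2 signals of the 8 genes, and with Ddc, Slc18a2, Tph2 and Slc6a4 (beyond the black lines). Slc6a3 and Maoa have r of 0.79 to 0.96 with each other and with those 4 genes, while Dbh and Nr4a2 stand at -0.90.

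Ddc, Slc18a2 and the serotonin neuron genes Tph2 (tryptophan hydroxylase) and Slc6a4 (serotonin transporter) were then set beside the 8 genes. That choice was made after their values were seen, and the p-values of these pairs do not allow for it. Of 32 pairs, 28 had r above 0, 8 had an exact permutation p under 0.05 and 6 an adjusted p under 0.05 over the 32. All 6 involved Slc6a3 or Maoa. Among 1609 genes brighter than the median gene with an SD of at least 0.2, Slc18a2 ranked 4 by r with Slc6a3. Tph2 ranked 104, Ddc 111 and Slc6a4 148, so many other genes followed Slc6a3 at least as closely as Tph2, Ddc and Slc6a4. No such ranking was made for Maoa. Slc6a3 with Slc18a2 gave r = 0.96 and rho = 0.98 (exact permutation p = 0.000174 and 0.000397; adjusted p = 0.00556 and 0.00635). This value was 0.98 without TNF-/- arrays 3 and 4, the farthest from the median of Slc6a3, and 0.91 with genotype means taken off. With any 1 array removed r lay between 0.95 and 0.99 and passed in all 8 cases; without TNF+/+ arrays 3 and 4 it was 0.95 and did not pass (adjusted p = 0.104).

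The other 5 pairs held less firmly. Slc6a3 gave r = 0.85 and rho = 0.98 with Ddc (exact permutation p = 0.00687 and 0.000397; adjusted p = 0.0466 and 0.00635) and r = 0.85 and rho = 0.79 with Tph2 (exact permutation p = 0.00868 and 0.0279; adjusted p = 0.0466 and 0.168), and 0.77 and 0.78 without TNF-/- arrays 3 and 4. Maoa gave r = 0.89 and rho = 0.86 with Slc6a4 (exact permutation p = 0.00198 and 0.0107; adjusted p = 0.0317 and 0.114), and 0.74 without TNF-/- arrays 3 and 4. Maoa gave r = 0.84 and rho = 0.76 with Slc18a2 (exact permutation p = 0.00546 and 0.0368; adjusted p = 0.0466 and 0.168), and 0.46 without those arrays. Maoa gave r = 0.82 and rho = 0.71 with Tph2 (exact permutation p = 0.00873 and 0.0576; adjusted p = 0.0466 and 0.23), and 0.67 without them. With 1 array left out these 5 passed in 2, 0, 2, 1 and 0 of 8 cases in the order given. With genotype means taken off, Slc6a3 with Tph2 kept an adjusted p under 0.05 (r = 0.90, exact permutation, adjusted p = 0.028). The other 4 did not: r was 0.71 for Slc6a3 with Ddc, and 0.86, 0.80 and 0.79 for Maoa with Slc6a4, Slc18a2 and Tph2 (exact permutation, adjusted p = 0.124, 0.0583, 0.076 and 0.076). Th gave r of 0.53 to 0.63 with the 4 genes, none past an exact permutation p under 0.05.

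**Figure D4:**
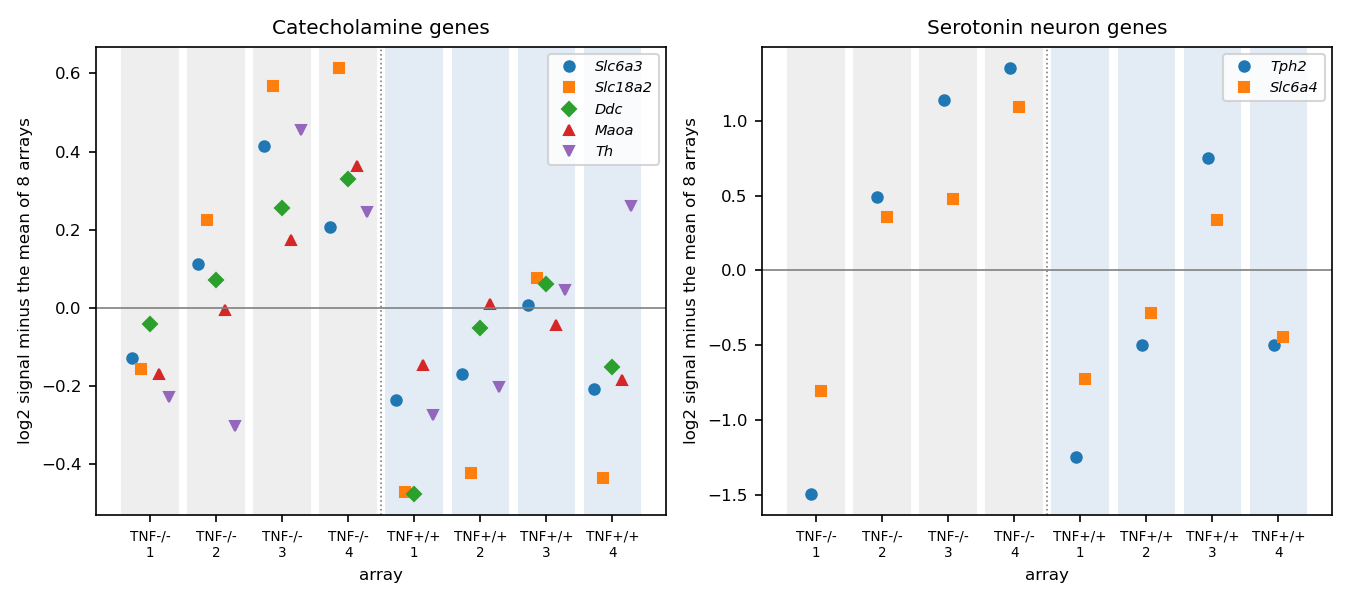
Log2 signal minus the mean of the 8 arrays for catecholamine genes (left) and serotonin neuron genes (right; the vertical scales differ), with each column an array and TNF-/- arrays left of the dotted line. Slc6a3 and Slc18a2 lie below their means in TNF-/- array 1 and in TNF+/+ arrays 1, 2 and 4, as do Tph2 and Slc6a4.

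Within groups Tph2 and Slc6a4 varied more than any of the 8, with pooled SDs of 1.09 and 0.64. Tph2 signals were 4.02, 6.01, 6.66 and 6.87 in TNF-/- arrays, against 4.27, 5.01, 6.27 and 5.02 in TNF+/+ arrays, a 7.2-fold range. TNF-/- array 1, the one TNF-/- array whose Slc6a3 and Slc18a2 signals fell among those of TNF+/+ arrays, also had the lowest Tph2. All 5 measured genes of raphe serotonin neurons were higher in TNF-/- arrays, where 9532 of 19938 genes were. Of these, 1 (Htr1a, named after its values were seen) had an unadjusted p under 0.05, against 7.37% of all genes. Its adjusted p was 0.23 (limma). Tph2 and Slc6a4 differed by 0.75 ± 0.65 and 0.56 ± 0.38 (SE, limma, unadjusted p = 0.28 and 0.18). Htr1a signals were 6.52, 6.52, 6.74 and 6.80 in TNF-/- arrays, against 6.29, 6.24, 6.35 and 6.30 in TNF+/+ arrays. Unlike Tph2, Htr1a was not lower in TNF-/- array 1 than in TNF-/- array 2. The mean over the 5 genes lay between 4.81 and 5.89 in TNF-/- arrays and between 4.87 and 5.53 in TNF+/+ arrays. All 7 measured hypothalamic genes were also higher, 1 of them (Hdc, likewise named afterwards) at an unadjusted p under 0.05, against the same 7.37%, with means of 5.05 to 5.36 in TNF-/- arrays and 4.74 to 5.25 in TNF+/+ arrays. Other regions did not go one way: 2 genes were higher and 6 lower for cerebellum, 3 and 5 for olfactory bulb, 4 and 2 for striatum, and 4 and 3 for cerebral cortex. Olfactory bulb and cerebral cortex also had 1 gene each higher at an unadjusted p under 0.05, and cerebellum and striatum had 0. These were Cdhr1 (0.96 ± 0.28) and Rorb (0.25 ± 0.06), likewise named afterwards (SE, limma, adjusted p = 0.313 and 0.251). The part of such regional markers in the differences of Slc6a3, Slc18a2 and Ddc was not tested.

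Genes whose pattern was most like that of a member were sought among 1609 or 1610 genes brighter than the median gene with an SD over the arrays of at least 0.2, as a description. For Slc6a3 these were Sulf1 (r = 0.99), Lipa (0.98), Tmem186 (0.97), Slc18a2 (0.96) and Vcam1 (0.96) over 8 arrays, so its vesicular partner ranked 4, Tph2 104 and Ddc 111 of 1609. For Th they were Polr2f (0.99), Ctsl (0.96), Snx10 (0.94), Lhfpl3 (0.93) and Hpcal1 (0.93), and Tph2 ranked 294 and Ddc 384. None of the 5 genes nearest to Th belongs to the catecholamine lists, while 1 of those nearest to Slc6a3 does. For the dim Dbh they were 4933439C10Rik (0.94), Fam76b, Stxbp2, Mir99ahg and Alg6 (0.82), and for the dim Slc6a2 4930503L19Rik (0.92), Nrep, Chn2, Tfrc and Snhg5 (0.82).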

How the data were processed

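RNA of 8 frozen brains was hybridised to Affymetrix Mouse Gene 1.0 ST arrays. The deposited table holds the authors' log2 signal of 35556 probe sets; GCOS, GCRMA and Partek appear in the submitters' processing notes with no role, and the log2 scale follows from the values (2.83 to 14.1). No source used here names a genome build. Groups came from sample titles, and 0 columns were left out.

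Values were used as deposited. Genes were named through the platform annotation (21789 probe sets with 1 symbol, 1621 with several, 12146 unnamed), and 21698 matched RefSeq (GRCm38.p6). A gene is its brightest probe set, and all probe sets were tested with limma 3.58.1 (R 4.3.3; lmFit, eBayes, two-sided, Benjamini-Hochberg; call at an adjusted p under 0.05). SAM was rebuilt with all 70 assignments. SE are limma's. Fits were tested on simulated data. Correlations used exact permutation over all pairings in Python 3.11.15. With 4 arrays per group, their number limits precision. Replicate numbers are shared by the groups, and the main fit did not pair arrays by them.

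The 8 genes and the lists were chosen with earlier results of these data known. Named genes are Tnf, the 8 genes, the 3 of smallest p in each of 4 related lists, the 5 most alike in pattern to Th, Slc6a3, Dbh and Slc6a2, and the region markers Gabra6, Tph2 and Slc6a4; others are named as chosen later, or as background with their values.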

Additional observations from a re-analysis of the deposited data

Results flagged for a closer look

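For 20 genes in 2 groups of 4 arrays, 3 of the 40 sets of values had 1 array far from the rest; chance gives about 2. Slc18a2 was 6.46 in TNF+/+ array 3, against 5.91 to 5.96 in the other TNF+/+ arrays. Pitx3 was 4.06 in TNF+/+ array 2, against 3.85 to 3.87 in the others, and Npy was 8.58 in TNF+/+ array 1, against 9.03 to 9.09.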

How the results depend on the processing

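None of the 8 genes was called under any of 18 alternatives in which it was tested, SAM included. Dbh, Slc6a2 and Pitx3 were not tested in the alternative that left out dim probe sets. Under the limma alternatives 0 to 2 genes had an unadjusted p under 0.05. Slc6a3 (0.21 to 0.40), Maoa (0.09 to 0.27) and Aldh1a1 (-0.27 to -0.12) kept their sign under all 17 limma alternatives. The sign turned after quantile normalization for Slc6a2 (0.016), and without TNF+/+ arrays 3 and 4 for Dbh (-0.063), Nr4a2 (0.052) and Pitx3 (-0.024). With single arrays left out, Th lay between -0.051 (without TNF-/- array 3) and 0.201, Dbh between -0.056 (without TNF-/- array 4) and 0.115, Slc6a2 between -0.079 and 0.011 (without TNF+/+ array 1; 0.0045 without TNF-/- array 1), and Nr4a2 between -0.066 and 0.013 (without TNF-/- array 4; 0.0012 without TNF+/+ array 4). The calls over all probe sets numbered 29, and 53 by SAM, 63 among probe sets with 1 symbol, 1 to 20 with 1 array left out (1 without TNF+/+ array 3) and 0 by limma once TNF+/+ arrays 3 and 4 were removed (3566 had an unadjusted p under 0.05). With the replicate block limma called 0 (4025 at an unadjusted p under 0.05). Same-numbered arrays had correlations of deviations of 0.07 to 0.11. TNF-/- array 3 with TNF+/+ array 4 gave 0.10, and the other arrays of different numbers gave -0.12 to 0.04. Not every array correlated best with its own number. The titles do not say whether equal numbers mark a pair, and that was not settled. The 1 correlation called among the 8 genes became 0 after quantile normalization (5 at an unadjusted p under 0.05) and without TNF+/+ arrays 3 and 4 (2 unadjusted), and ran from 0 to 1 with 1 array left out. The 6 called with Ddc, Slc18a2, Tph2 and Slc6a4 became 4 with genotype means taken off (which include 2 of Aldh1a1), 2 with Spearman's rho, 1 after quantile normalization, 0 without TNF+/+ arrays 3 and 4 (7 unadjusted) and 1 to 3 with 1 array left out; fewer arrays leave fewer pairings. Causes of other shifts were not tested. None of the 8 genes had another probe set with 1 symbol to try, and probe sets with several symbols were not searched. The planned comparison of the Slc6a3 and Slc6a2 proteins was not run. Signals near background limit what Dbh, Slc6a2 and Pitx3 can show.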

Other observations

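Aldh1a1 lay lower in TNF-/- arrays while Slc6a3, Maoa and Slc18a2 lay higher, and its relation to these genes differed with the genotype means taken off, a reading made after the values were seen. Aldh1a1 with Maoa had r = 0.26 over the 8 arrays and 0.86 with genotype means taken off (exact permutation p = 0.00424, adjusted p = 0.0594 over 28 pairs). Aldh1a1 with Slc6a3 had r = -0.03 and 0.73 (exact permutation p = 0.0413 with means taken off, adjusted p = 0.23). With the serotonin neuron genes it had r = 0.41 and 0.88 for Tph2, and 0.35 and 0.91 for Slc6a4 (with means taken off, exact permutation p = 0.00422 and 0.00208, adjusted p = 0.0337 and 0.028 over 32 pairs). Without TNF-/- array 1, over 7 arrays with genotype means kept, r was -0.13 with Tph2, -0.13 with Slc6a4, -0.09 with Maoa and -0.42 with Slc6a3; values with means taken off were not computed without that array. That array had the lowest signal of Aldh1a1 (9.46) and of Tph2 (4.02). The permutations treat the 8 values with means taken off as exchangeable, which holds only approximately.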
